A study of Mus musculus with 4 samples.

Results

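Shelterin and telomere maintenance genes were followed across 4 expression arrays of mouse embryonic fibroblasts. The 10 genes of the group were listed by name, with earlier results of these data known. Of them, 9 were represented on the array by 14 probe sets, out of 22690 probe sets and 12394 named genes in all. They are the shelterin genes Terf1, Terf2, Terf2ip, Tinf2, Acd and Pot1a, the CST gene Ctc1, the telomerase reverse transcriptase gene Tert and the poly(A)-ribonuclease gene Parn. The annotation used here pairs no probe set with the helicase gene Rtel1, which was not analysed here.

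Telomeres are the repeated DNA ends of chromosomes. The shelterin complex coats them and keeps the DNA damage response away, the CST complex helps to copy their C-rich strand, and telomerase extends the other strand from an RNA template that needs trimming and stabilising. Inherited defects in many of these genes cause dyskeratosis congenita, a bone marrow failure syndrome with short telomeres, and fibroblasts of laboratory mice are known for long telomeres.

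The cells carry the strain label C57/BJ6 and come as 4 groups of 1 array. The groups are total RNA under the genotype label Npm1+/+, total RNA under Npm1+/-, ribosome-bound RNA under Npm1+/+ and ribosome-bound RNA under Npm1+/-, the bound RNA being taken from sucrose gradient fractions. Npm1 encodes nucleophosmin, a nucleolar protein of ribosome assembly, and by the series' title and design its loss was studied for changes in what is translated and as a cause of dyskeratosis congenita. Passage, treatment, age and the number of embryos are not given in the sources used here, nor is it stated whether both fractions of a genotype came from 1 culture. With 1 array per group no value has a replicate error and no p-value was computed.

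Values are log2 intensities per probe set, so a difference of 1 is 2-fold. The array medians lay between 7.47 and 7.59. Npm1 at its brighter probe set read 11.91 in total RNA labelled Npm1+/+ and 11.96 in total RNA labelled Npm1+/-, and 12.93 and 12.84 in ribosome-bound RNA. The other Npm1 probe set was higher under the Npm1+/- label by 0.07 in total and 0.06 in ribosome-bound RNA. Npm1 thus does not follow the genotype label, although a probe set outside the deleted part would check nothing. Directions below are therefore between the libraries as labelled. All 11 fibroblast markers examined lay above the median of all values on every array, whereas 0 of 5 pluripotent or germ cell markers did so on any array. At most 1 of 5 epithelial and 1 of 5 endothelial markers did. Of 14 macrophage markers 3 lay above it in each total library, 7 in the ribosome-bound library labelled Npm1+/+ and 9 in that labelled Npm1+/-.

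Upstream sequence from RefSeq (GRCm38.p6) was matched for 9 of the 10 genes, Terf1 being the exception. Sequences are shown for Ctc1, the member with the largest difference between genotype labels in total RNA at its brightest probe set, and for Pot1a, the member with the largest difference of opposite sign in total RNA among those reaching the median of all values. They show how the upstream letters of these oppositely placed genes compare. Each run is the 250 bases before the annotated start, 5′ to 3′ on the gene's strand. The Ctc1 run is chr11:69015661-69015910 on the plus strand and the Pot1a run chr6:25809219-25809468 on the minus strand. Capitals mark matches on either strand to the GC box GGGCGG or the E-box CACGTG. Also searched on both strands were the CCAAT box, the TATA box with the letters TATAAA, and the telomere repeat TTAGGG.
Ctc1: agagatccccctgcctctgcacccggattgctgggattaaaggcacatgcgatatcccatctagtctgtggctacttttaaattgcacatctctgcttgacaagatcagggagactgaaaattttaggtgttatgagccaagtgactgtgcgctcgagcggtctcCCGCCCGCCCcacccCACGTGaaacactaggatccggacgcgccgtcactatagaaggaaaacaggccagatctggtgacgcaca
Pot1a: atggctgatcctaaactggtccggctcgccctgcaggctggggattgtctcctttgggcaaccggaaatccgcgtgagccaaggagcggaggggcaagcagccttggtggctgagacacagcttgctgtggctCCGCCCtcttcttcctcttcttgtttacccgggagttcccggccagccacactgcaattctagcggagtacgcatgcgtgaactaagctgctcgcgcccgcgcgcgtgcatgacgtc
Ctc1 holds 2 overlapping GC boxes and 1 E-box, and Pot1a holds 1 GC box. GC boxes were present in 5 of the 9 genes (Ctc1, Pot1a, Rtel1, Parn and Tert), against 32.7% of all 32851 upstream runs of this length. CCAAT occurred in Acd and Terf2 (33.8% of all runs), the telomere repeat letters in Parn (9.32%, 1 match sharing bases with its GC box), the E-box in Ctc1 (6.02%), and the TATA box in none of the 9 (12.4%). The GC content ran from 46.8% in Acd to 61.6% in Pot1a, against a median of 52.4% over all runs. These matches describe letters only, and no binding was measured.

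Of the 14 probe sets, 7 lay at or above the median of all values, 7.53, on all 4 arrays. They belong to Terf2, Terf2ip, Tinf2, Acd, Ctc1 and Parn, the last with both of its probe sets. Another 2, for Pot1a and Ctc1, crossed the median on 3 arrays, and 5 lay below it throughout. Counted by gene, 7 of the 9 reached the median on at least 1 array, where 57.9% of the 12394 genes did. Terf1 and Tert did not. None of the 14 reached the 75th percentile, 9.33, on all 4 arrays. The brightness of a probe set also depends on its probes, so no order between the genes is drawn from these levels.

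**Figure D1:**
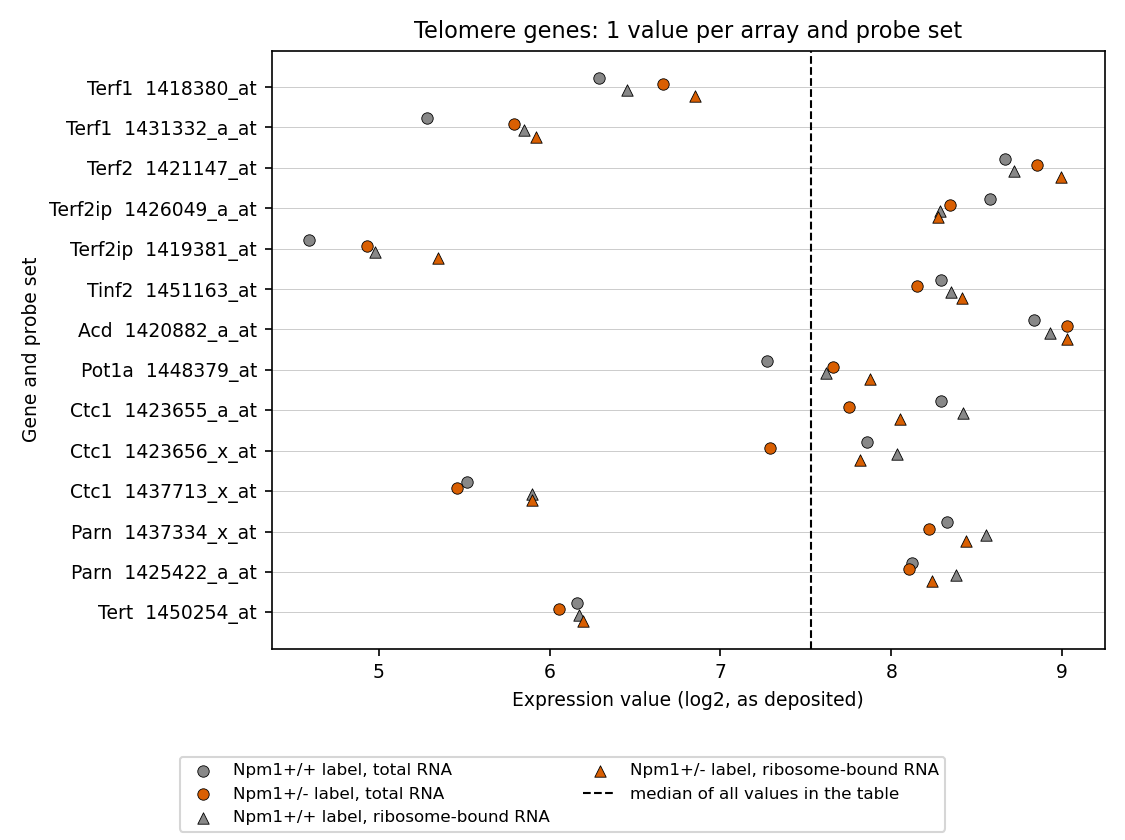
Expression value (log2, horizontal axis) of each of the 14 telomere gene probe sets (vertical axis), with 1 point per array; circles are total RNA, triangles ribosome-bound RNA, grey the Npm1+/+ label and orange the Npm1+/- label. The dashed line is the median of all values, 7.53; Terf1, Tert and the dimmest probe sets of Terf2ip and Ctc1 sit left of it on all 4 arrays.

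Terf1 and Terf2 encode the shelterin proteins that bind double-stranded telomere repeats. Terf2 read 8.66 in total RNA labelled Npm1+/+, 8.85 in total RNA labelled Npm1+/-, 8.72 in ribosome-bound RNA labelled Npm1+/+ and 8.99 in ribosome-bound RNA labelled Npm1+/-. Both Npm1+/- libraries were therefore above both Npm1+/+ libraries, by 0.19 in total and 0.27 in ribosome-bound RNA. The median gene stood at 0.19 and 0.11, so in total RNA Terf2 lay at the median gene. Terf1 read 6.29, 6.66, 6.45 and 6.85 in the same order at its brighter probe set, again with both Npm1+/- libraries on top. Its differences between genotype labels were 0.37 in total and 0.40 in ribosome-bound RNA. At the other Terf1 probe set, which read 5.28, 5.79, 5.85 and 5.92, the difference was 0.51 in total but 0.07 in ribosome-bound RNA. All of these Terf1 values lie below the median of all values, so the sizes of its differences are uncertain.

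Terf2ip encodes Rap1, which joins shelterin through Terf2. Its bright probe set read 8.58 in total RNA labelled Npm1+/+ and 8.34, 8.29 and 8.27 in the others, total labelled Npm1+/- first. The first library was thus the highest, and the remaining values lay within a narrow span. The other Terf2ip probe set, at 4.59, 4.93, 4.98 and 5.35, had that same library lowest. The probe sets gave opposite signs between genotype labels in total RNA (-0.24 and 0.34) and between fraction labels under Npm1+/+ (-0.29 and 0.38), so no direction is given for Terf2ip.

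Tinf2 and Acd link the DNA-binding subunits, and Acd (TPP1) also recruits telomerase. Tinf2 read 8.29 and 8.15 in total RNA labelled Npm1+/+ and Npm1+/-, and 8.35 and 8.41 in ribosome-bound RNA. Its genotype difference was -0.14 in total and 0.07 in ribosome-bound RNA. Acd read 8.84 and 9.03 in total RNA, and 8.93 and 9.03 in ribosome-bound RNA. Its differences of 0.19 and 0.10 lay close to the median gene, which stood at 0.19 and 0.11.

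Pot1a encodes the shelterin subunit that binds the single-stranded overhang. Whether its probe set distinguishes Pot1a from the mouse paralogue Pot1b is not known here. It read 7.27 in total RNA labelled Npm1+/+, just under the median of all values, and 7.66 in total RNA labelled Npm1+/-. In ribosome-bound RNA it read 7.62 and 7.88. Pot1a was higher in the library labelled Npm1+/- by 0.39 in total RNA (1.31-fold) and by 0.26 in ribosome-bound RNA (1.20-fold). The low value in total RNA labelled Npm1+/+ also enters its fraction difference under that label, 0.35, since the comparisons share that array. Fraction differences of Pot1a were above 0 under both labels, 0.22 under Npm1+/-.

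Ctc1 encodes the largest CST subunit and is mutated in Coats plus and in some dyskeratosis congenita. Its brightest probe set read 8.29 in total RNA labelled Npm1+/+ and 7.75 in total RNA labelled Npm1+/-. In ribosome-bound RNA the readings were 8.42 and 8.05. Both Npm1+/- libraries were below both Npm1+/+ libraries. The differences between genotype labels were -0.54 in total RNA (1.45-fold lower) and -0.37 in ribosome-bound RNA (1.29-fold lower).

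A second Ctc1 probe set, of the _x_at kind that can cross-hybridise, read 7.86, 7.29, 8.03 and 7.82 in the order used for Terf2. It gave -0.57 in total and -0.21 in ribosome-bound RNA. The remaining one, also of that kind and far below the median at 5.52, 5.46, 5.90 and 5.90, gave -0.06 and 0.00. Thus both brighter Ctc1 probe sets were lower under the Npm1+/- label in both fractions, and the dim one showed next to no difference. Over the alternatives tried, the Ctc1 difference ran from -0.64 to -0.39 in total and from -0.43 to -0.19 in ribosome-bound RNA.

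Tert, the catalytic subunit of telomerase, read 6.16, 6.05, 6.17 and 6.19 in the same order, a span of 0.14 and the narrowest among the brightest probe sets of the 9 genes. All Tert values were below the median of all values, and a small span at such a level does not show that its RNA was equal. Parn trims the adenylated end of telomerase RNA. Its brighter probe set, also of the _x_at kind that can cross-hybridise, read 8.33, 8.22, 8.55 and 8.44. The other read 8.12, 8.11, 8.38 and 8.24. At both probe sets each ribosome-bound library lay above both total libraries, and each Npm1+/- library lay below its Npm1+/+ partner. The genotype differences were -0.11 and -0.02 in total and -0.12 and -0.14 in ribosome-bound RNA.

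Between genotype labels, 0 of the 7 genes reaching the median passed 2-fold in total RNA, where 1.73% of 7180 genes did, and 0 passed 1.5-fold, where 13.6% did. In ribosome-bound RNA the same counts were 0 and 0, against 1.25% and 7.94%. The median over the 7 was -0.11 in total and 0.07 in ribosome-bound RNA, and the median gene was at 0.19 and 0.11. Over all 9 genes on the array, Terf1 and Tert included, the medians were also -0.11 and 0.07. In total RNA 3 of the 7 were above 0, as were 66.1% of all genes, and in ribosome-bound RNA 4 of the 7, against 62.9%. Subtracting a loess trend turned the median in ribosome-bound RNA to -0.00067 with 3 above 0. Averaging all probe sets of a gene turned the median in total RNA to 0.19 over the 5 genes left. Ctc1 and Terf2ip, both below 0 there at their brightest probe sets, had dropped out. Their dim probe sets took their means below the median of all values.

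Replicate spread being unknown, the only measure of technical spread was the disagreement between the brightest probe sets of a gene. Its SD over 2702 genes was 0.32 in total and 0.28 in ribosome-bound RNA. Both probe sets are read on the same arrays, so this SD leaves out variation between cultures and is no replicate error. By this measure 2 of the 7 members, Ctc1 and Pot1a, differed between genotype labels by more than the SD in total RNA, and 1, Ctc1, in ribosome-bound RNA. Among all genes the shares were 49.5% and 39.6%. The Ctc1 difference in total RNA was larger in size than that of 82.0% of the 7180 genes, and 7.24% of them lay lower. Across the 4 arrays the values of a member spanned 0.33 at the median of the 7, against 0.47 for all genes.

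**Figure D2:**
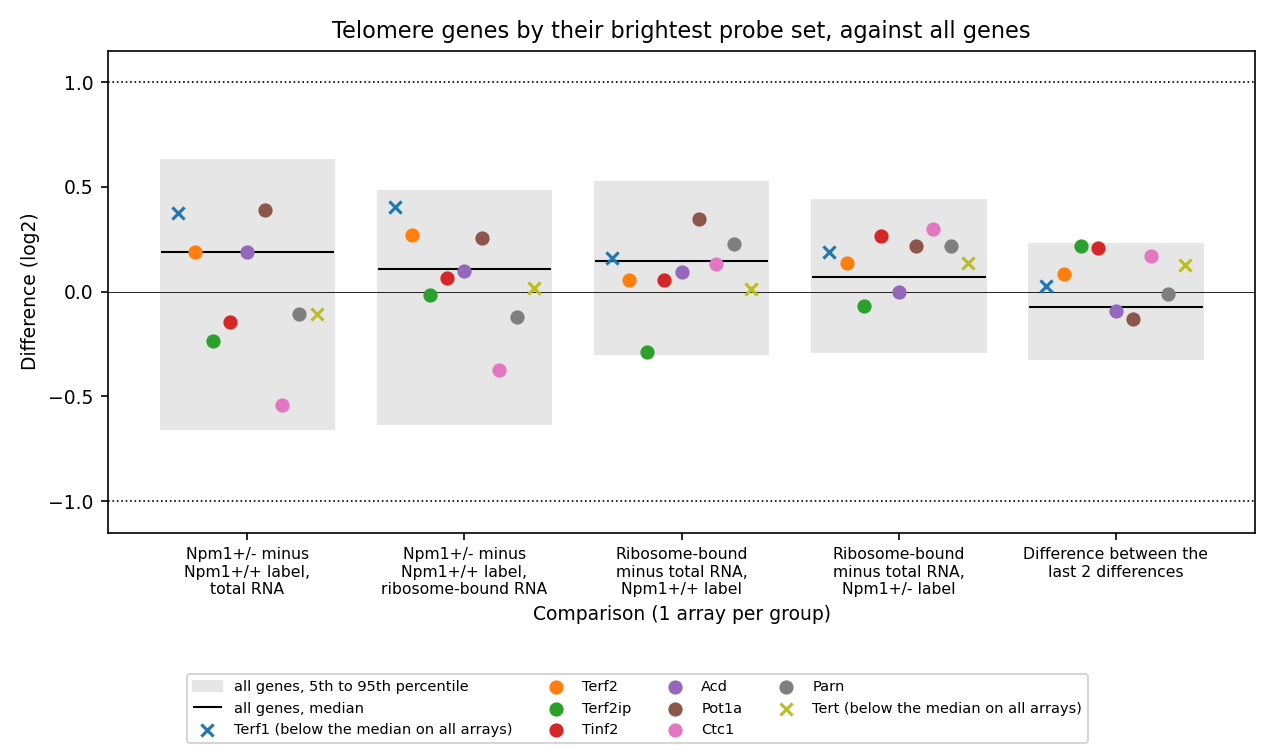
Difference of log2 values (vertical axis) in each of 5 comparisons (horizontal axis) for the 9 telomere genes by their brightest probe set, crosses marking Terf1 and Tert. Grey boxes span the 5th to 95th percentile of the 7180 genes, black lines their median, and dotted lines 2-fold; every member lies inside the dotted lines, and Ctc1 is lowest in both genotype comparisons at -0.54 and -0.37.

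Between fraction labels, 13 of the 14 probe sets read higher in ribosome-bound than in total RNA under both genotype labels, the exception being the bright Terf2ip probe set. That direction follows the whole array and depends on the scaling. Of the 7 genes, 6 were above 0 under each label as deposited, against 75.6% of all genes under Npm1+/+ and 65.1% under Npm1+/-. Under Npm1+/+ 3 were so after centring each array on its median and 2 after quantile normalisation or the loess correction. Under Npm1+/- 5 were so with each of these. None of the 7 passed 2-fold or 1.5-fold under Npm1+/+, where 0.919% and 5.21% of all genes did, nor under Npm1+/-, where 0.766% and 3.59% did. The median over the 7 was 0.09 under Npm1+/+ and 0.22 under Npm1+/-, with the median gene at 0.14 and 0.07. The median under Npm1+/+ turned to -0.03, -0.05 and -0.06 under these other scalings. Centring each array moved the median gene by -0.12 and -0.10 in these comparisons.

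Relative to the median gene, 2 of the 7 were higher in ribosome-bound RNA under Npm1+/+ in all 4 scalings, Pot1a and Parn. As deposited they lay above the median gene by 0.20 (Pot1a) and by 0.08 and 0.11 (the probe sets of Parn). Under Npm1+/- the count was 5 of 7 in all 4 scalings, led as deposited by Ctc1, above the median gene by 0.23 and by 0.46 at the second probe set, and Tinf2, above it by 0.20. The unadjusted difference of Acd was 0.00059 there, its ribosome-bound and total libraries reading 9.03 alike. In bulk RNA fewer cells of a type and less RNA per cell cannot be told apart. Over all 14 macrophage markers the median fraction difference was 0.66 under Npm1+/+ and 0.57 under Npm1+/-. The median over all genes on the array was 0.09 and 0.05. The log2 of the markers' summed level, which the brightest markers dominate, was 10.4 and 10.7 in the total libraries and 11.6 and 12.0 in the ribosome-bound ones. Not every marker moved this way. Ptprc, at 4.53 to 4.87, gave -0.21 and -0.32, and Cd14 gave 0.34 and -0.03. The part of macrophage RNA in these values was not tested.

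The difference between the fraction differences, Npm1+/- minus Npm1+/+, asks whether ribosome association differs between genotype labels. It was largest for the bright Terf2ip probe set (0.22, but 0.03 at the dim one), Tinf2 (0.21) and Ctc1 (0.17) and lowest for Pot1a (-0.13). None of the 7 passed 2-fold, as did 0.0% of all genes, and none passed 1.5-fold, against 0.306%. The median over the 7 was 0.08, with the median gene at -0.07. Averaging all probe sets of a gene, which dropped Ctc1 and Terf2ip, turned the member median to -0.07 over 5 genes. The spread between probe sets had an SD of 0.22 here, and 0 of the 7 members exceeded it, against 21.9% of all genes. The second Ctc1 probe set, at 0.36, and the dim Terf1 one, at -0.45, did exceed it.

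Other genes of telomere maintenance were taken from fixed lists by function. Of the other CST genes only Ten1 was matched, and it read 7.68 and 8.24 in total RNA labelled Npm1+/+ and Npm1+/-, and 8.14 and 8.52 in ribosome-bound RNA. Ten1 was thus higher under the Npm1+/- label by 0.56 and 0.38, where its CST partner Ctc1 was lower. In the telomerase particle, the H/ACA protein genes Nop10, Nhp2 and Gar1 differed by 0.10, 0.48 and 0.44 in total and by 0.17, -0.03 and 0.33 in ribosome-bound RNA. The other Nhp2 probe set gave 0.07 and -0.26. Naf1, an assembly factor of such particles, was at 0.31 and 0.30. The list had 6 of 11 genes above the median of all values, none past 1.5-fold in either genotype comparison. Of all genes 13.6% passed it in total and 7.94% in ribosome-bound RNA. Beside Parn among the genes for maturing telomerase RNA stood Exosc10, an exosome nuclease gene, at -0.72 in total and -0.61 in ribosome-bound RNA. Its other probe sets ran from -0.69 to -0.18 in total and from -0.43 to 0.07 in ribosome-bound RNA, where averaging all of them gave -0.32. Exosc10 was the only one of 6 past 1.5-fold in either genotype comparison, beside the same shares of 13.6% and 7.94% of all genes. Pabpn1, a nuclear poly(A)-binding protein gene, was at 0.54 and 0.44, but 1 of its other probe sets gave -1.08 and -0.92, so its direction is not settled.

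Genes whose products modify or bind shelterin had medians of 0.34 and 0.27 over 9 genes in total and ribosome-bound RNA. The median gene stood at 0.19 and 0.11. Averaging all probe sets of a gene lowered the list medians to 0.13 and 0.05 over 8 genes. The loess correction lowered them to 0.22 and 0.18, with the median gene then at 0.03 and 0.01. Fbxo4, whose product targets Terf1 for degradation, was at 0.72 in total and 0.27 in ribosome-bound RNA, but at 0.11 and 0.08 at a dim probe set. Tnks2, a tankyrase, one of the enzymes known in human cells to release TERF1 from telomeres, was at 0.54 and 0.44, and at -0.33 and -0.69 at its other probe set, so its direction is not settled. The kinase gene Nek7 was at 0.48 and 0.46, with its other probe sets at 0.30 and 0.51 in total and 0.18 and 0.49 in ribosome-bound RNA.

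Genes of telomere replication, which include helicases, nucleases, RPA subunits and a primase, had medians of 0.17 and 0.08 over 7 genes, none past 1.5-fold. Of these, 5 of 7 were above 0 in each, against 66.1% and 62.9% of all genes. Past 1.5-fold were 13.6% and 7.94% of all genes. With a floor at the 75th percentile, which left 2 genes, the medians turned to -0.07 and -0.14. The structure-specific nuclease gene Mus81 was at 0.47 and 0.31, and at 0.12 and 0.26 at its other probe set. The helicase gene Blm was at -0.34 and -0.35, but reached the median of all values only in ribosome-bound RNA labelled Npm1+/+ (7.68). The subunits of the single-strand binding protein RPA did not share a direction. Rpa1 was at -0.27 and -0.36, whereas Rpa2 was at 0.43 and 0.13 and Rpa3 at 0.42 and 0.23. Dyskeratosis congenita genes outside the members had medians of 0.08 and -0.03 over 6 genes, with the median gene at 0.19 and 0.11. None of the 6 passed 1.5-fold between genotype labels, against 13.6% and 7.94% of all genes. Of the 6, Nop10, Nhp2 and Naf1 are also on the telomerase list, and others are also among the genes for maturing telomerase RNA. The only one on no other list is Npm1 itself. The sign of each median turned in other settings, to -0.10 in total RNA with the loess correction and to 0.07 in ribosome-bound RNA with the higher floor.

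End sensing and repair genes had medians of -0.45 in total and -0.48 in ribosome-bound RNA, with 8 of 9 below 0 in each. Of all genes 66.1% and 62.9% were above 0. The medians stayed below 0 in all settings tried, although a floor at the 75th percentile left 1 gene, Ercc1. Of the MRN complex, which senses broken ends, Rad50 was at -0.57 and -0.48 and Mre11a at -0.53 and -0.47, while Nbn was at 0.22 and 0.01. The other Rad50 probe set, a dim one, gave -0.24 and 0.00, and averaging both gave -0.24 in ribosome-bound RNA. Ercc1 (-0.60 and -0.60), Parp1 (-0.57 and -0.80) and Atr (-0.38 and -0.71) were also among the lowest in at least 1 of the fractions. Of the 9 genes 1 in total RNA passed 1.5-fold, where 13.6% of all genes did, and 3 in ribosome-bound RNA, where 7.94% did. Atr is among these 3, but it reached the median of all values only in ribosome-bound RNA labelled Npm1+/+ (7.63). Its place in the list, and so in these counts and medians, rests on the array where it was highest.

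Among telomeric chromatin genes stood Atrx, a remodeller whose loss accompanies telomerase-independent telomere lengthening. It was the only gene past 2-fold of 8 in each genotype comparison, against 1.73% of all genes in total and 1.25% in ribosome-bound RNA. It read 7.93 and 6.76 in total RNA labelled Npm1+/+ and Npm1+/-, and 8.07 and 6.79 in ribosome-bound RNA. The differences were -1.17 (2.24-fold lower) and -1.29 (2.44-fold lower). Atrx reached the median of all values only in the Npm1+/+ libraries, so the sizes of these differences are uncertain. Its place in the list, and so in this count, rests on the arrays where it was highest. Its other 4 probe sets, all dimmer, ran from -0.54 to -1.68 in total and from -0.53 to -1.75 in ribosome-bound RNA. Its binding partner gene Daxx was at 0.25 in both. The maintenance methyltransferase gene Dnmt1 was at -0.88 and -0.86, and Cbx5, which encodes the heterochromatin protein HP1 alpha, at 0.91 and 0.80, but at -0.11 to 0.83 in total and -0.04 to 0.31 in ribosome-bound RNA at its other probe sets.

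**Figure D3:**
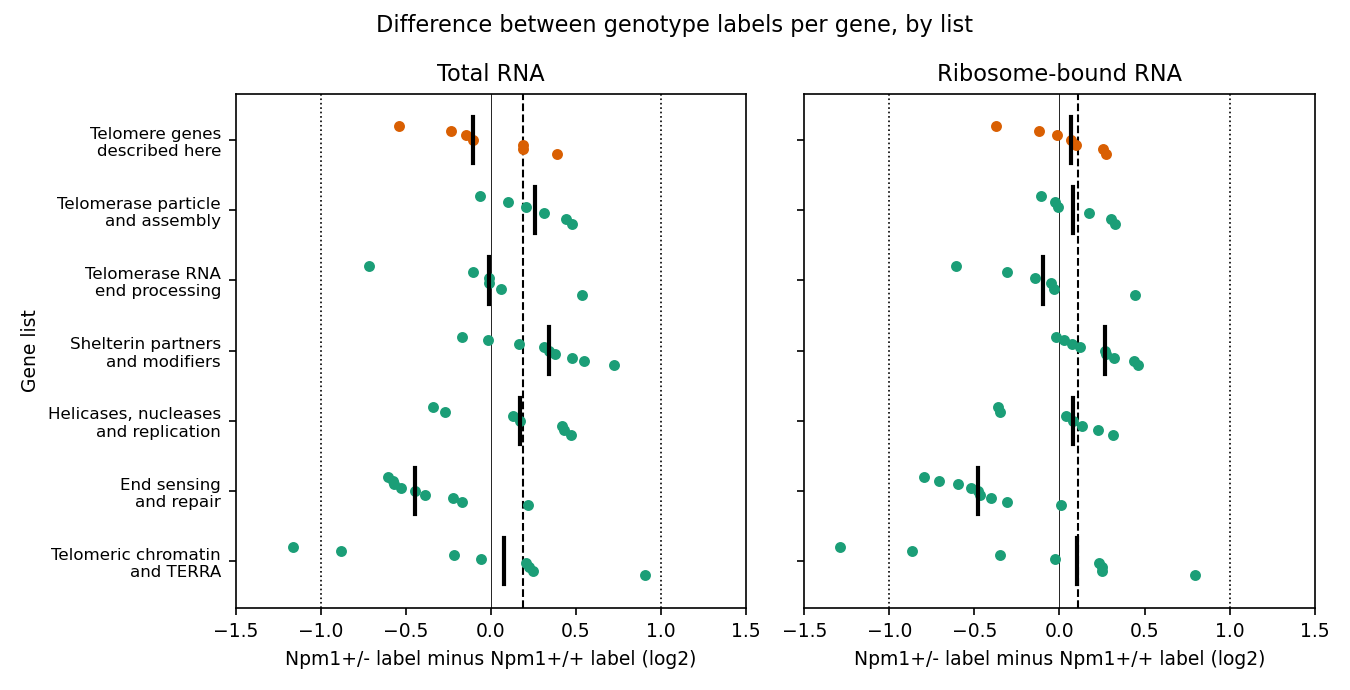
Difference between genotype labels (log2, horizontal axes) in total RNA (left) and ribosome-bound RNA (right) for genes reaching the median of all values, by gene list (vertical axis); each point is 1 gene, offset vertically for legibility. Black bars are list medians, the dashed line is the median of all genes and dotted lines are 2-fold; end sensing and repair genes have medians of -0.45 and -0.48, and only Atrx lies beyond 2-fold.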

How the data were processed

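RNA from mouse embryonic fibroblasts was measured on 4 Affymetrix arrays, 1 per group. The authors deposited log2 values for 22690 probe sets, and per the submitters' processing notes these came from R 3.4.3, affy 1.56.0 and RMA, which corrects background, normalises between arrays and summarises probes. RMA is meant to make the arrays' distributions alike, so a shift of all RNAs may not be seen. The deposited distributions were not identical, with medians from 7.47 to 7.59 and interquartile ranges from 3.43 to 3.59. Settings and annotation build are not given in the sources used here.

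The platform's annotation gave 1 symbol to 20393 probe sets, of which 20364 matched RefSeq (GRCm38.p6) by Entrez number, changing 0 symbols. For each gene the brightest probe set by mean over the arrays was used, and a gene passed if it reached the median of all values, 7.53, on at least 1 array. Differences of log2 values were computed in 5 comparisons with Python 3.11.15 and pandas 2.3.3, and calls used a size rule of 2-fold, with 1.5-fold beside it. Detection calls were not used, and precision is limited by having 4 arrays. The difference calculation was tested on simulated data.

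The members and gene lists were chosen with earlier results of these data known. All members are named at every probe set, and from the lists those past 2-fold or otherwise 2 to 4 with the largest differences in total or ribosome-bound RNA. Nbn, Daxx, Nop10, and Dnmt1 and Cbx5 beside Atrx, were named outside this rule after their values were seen. Alternatives covered probe set choice, the floor, scaling and the fold. The other list genes for which no probe set was matched were not analysed here.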

Additional observations from a re-analysis of the deposited data

Results flagged for a closer look

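Tinf2 and Tert were flagged because their genotype difference had opposite signs in total and in ribosome-bound RNA. For Tinf2 the differences were -0.14 and 0.07, a gap of -0.21, and for Tert they were -0.11 and 0.02, a gap of -0.13. Each side is 1 array against 1, the gaps were not tested, and they are smaller than the SD of 0.22 between probe sets of a gene for this quantity.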

How the results depend on the processing

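No member counted passed 2-fold in any of the 5 comparisons under the alternatives run, nor did any of the 7 pass the 1.5-fold rule. Averaging all probe sets of a gene left fewer than 7 members to count. The 3-fold rule could not find any, since none passed 2-fold. Of 215 recomputed member differences 26 took the other sign, all but 1 of them smaller at first than the SD between probe sets, and 3 moved by more than that SD. These 3 came from averaging all probe sets of a gene, namely Terf2ip between fraction labels (0.05 under Npm1+/+ and 0.17 under Npm1+/-) and Terf1 in the difference of the fraction differences (-0.21). With the floor at the 75th percentile no member was left, so its medians could not be computed, and 0 of the 14 probe sets lay above that level on all arrays. For the other lists, which were recomputed by choices made after seeing the data, averaging all probe sets took the count of telomeric chromatin genes past 2-fold from 1 to 0 in both genotype comparisons, because the mean of Atrx falls below the floor, the floor at the 75th percentile also took it to 0 in both, and the loess correction took it to 2 in total RNA, adding Dnmt1 (-1.01). The count of 1 for dyskeratosis congenita genes between fraction labels under Npm1+/+, which is Npm1 itself (1.02), became 0 with averaging, centring, quantile normalisation and the loess correction. With no floor 1 helicase or replication gene, Timeless (1.00), was past 2-fold in that comparison. Without detection calls the level alone stands for signal over background, which leaves Terf1 and Tert least certain.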
